A study of Mus musculus with 6 samples.

Results

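A set of 10 endothelial identity genes was followed in ADC106, a mouse angiosarcoma cell line: Pecam1, Cdh5, Emcn, Eng, Tek, Tie1, Erg, Fli1, Sox18 and Vwf. They were chosen by name as genes that define endothelial cells, and all 10 were found among the 55401 mouse Ensembl gene identifiers of the count table. The cells carried either an NC mimic (3 libraries, genotype label WT) or an miR-497 mimic (3 libraries, genotype label miR-497 overexpression), both transfected at 12.5 nM, and RNA was taken 3 days later. The study asked which genes respond to miR-497, and poly(A) RNA was sequenced. Every library came from the same cell line, and cells without any mimic were not analysed here.

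Angiosarcoma is a malignant tumour of endothelial cells, the cells that line blood and lymphatic vessels. Endothelial cells are recognised by junction and surface proteins (Pecam1, Cdh5, Emcn), by receptors that hold vessels in a stable state (Tek, Tie1, and the TGF-beta family co-receptor Eng), by the transcription factors that switch these genes on (Erg and Fli1 of the ETS family, Sox18 of the SoxF group) and by the clotting protein Vwf, which they store in granules. A microRNA such as miR-497 lowers messenger RNAs whose 3' UTR pairs with its seed, bases 2 to 8 of the mature strand.

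The 6 libraries held 25777676 to 36159499 counts, and all of them entered each comparison. Mitochondrial genes took 2.03% to 2.15% of the counts in the NC libraries and 2.94% to 3.77% in the miR-497 libraries; the part of that difference in the results below was not tested. The labels do not say whether the replicates were separate cultures, so p-values measure only the spread between these libraries, which may be technical. In bulk RNA, fewer cells of a type and less RNA per cell cannot be told apart.

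Of the 10 genes, 9 were clearly expressed in ADC106 cells and most were among the most abundant messages of the line. Levels are compared between genes as TPM, which divides counts by exon length and scales all libraries to the same sum. A gene was called expressed when it reached 1 TPM in all 6 libraries, as 10969 of 21897 protein-coding genes did (50.1%, with a median of 29.0 TPM). Pecam1 and Cdh5 led in the NC libraries, at 2152 ± 72.3 and 1945 ± 70.4 TPM (SD, n = 3), and both stood at percentile 99.8 among protein-coding genes. Eng followed at 837 ± 20.2 TPM and Sox18 at 773 TPM, then Tie1 at 402, Erg at 370, Emcn at 260, Tek at 245 and Fli1 at 102 TPM. Even Fli1, the lowest of these 9, stood at percentile 91.4.

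Vwf was the exception. Its NC mean was 0.980 TPM, and over the 6 libraries it ranged from 0.800 to 1.86 TPM, on 97 to 262 counts, so it was detected in every library at a level close to the 1 TPM line. Fli1 was 104 times as high as Vwf in the NC libraries and 62.1 times as high in the miR-497 libraries. With the longest transcript used as the gene length, all 10 genes passed the line.

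The order of levels was well separated within each group. Among neighbours in the NC order, only Emcn and Tek had ranges that overlapped. With miR-497 the order was Cdh5, Pecam1, Sox18, Eng, Emcn, Tie1, Erg, Tek, Fli1 and Vwf, and only Tie1 and Erg overlapped. Eng and Sox18 thus changed places, and Emcn moved above Tie1. Pecam1 and Cdh5 changed places too, but not with the longest transcript as gene length. There Pecam1 stayed above Cdh5 (2933 against 1541 TPM with NC, 1950.0 against 1689 TPM with miR-497). With that length Emcn also stood above Erg with NC (300.7 against 297.2 TPM) and above Eng with miR-497 (588.8 against 544.2 TPM). The summed level of the 10 genes was 6993 to 7216 TPM in the NC libraries and 6756 to 7039 TPM in the miR-497 libraries, so the 2 ranges overlapped while single genes moved apart.

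**Figure D1:**
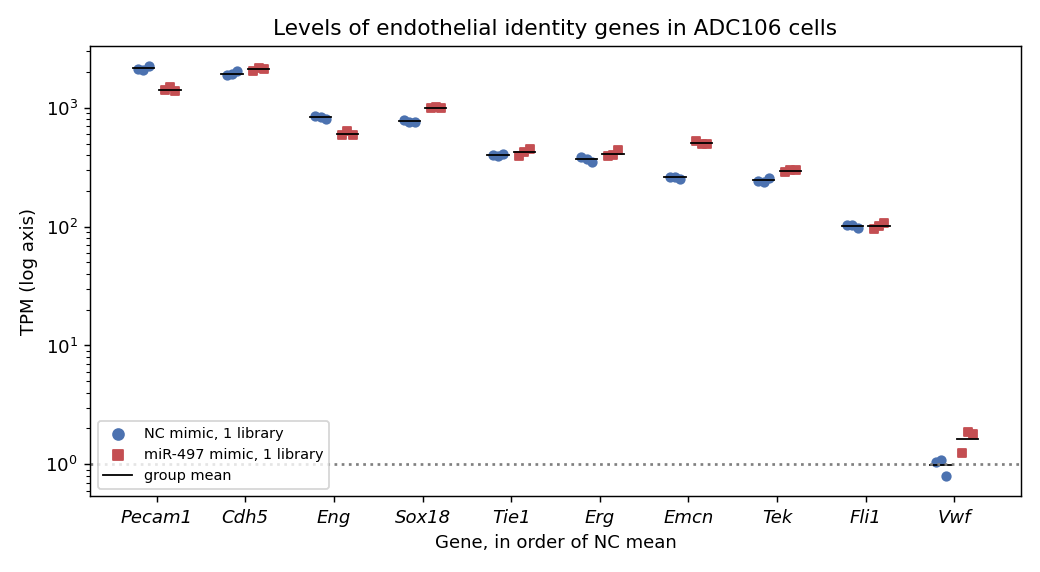
Level of each gene in TPM (vertical log axis) in each of the 3 NC and 3 miR-497 libraries (points), with group means as black lines, and 1 TPM as the dotted line. Genes are ordered by NC mean from Pecam1 at 2152 to Vwf at 0.980 TPM, and 9 of the 10 lie far above the dotted line.

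The identity genes moved in both directions with miR-497, most of them upward. In the edgeR quasi-likelihood fit over 14661 genes (Benjamini-Hochberg), 7 of the 10 rose (Emcn, Vwf, Sox18, Tek, Erg, Cdh5 and Tie1), 2 fell (Pecam1 and Eng) and Fli1 was not called. The response of the line was broad, so these counts need its background. Of all genes tested, 49.8% were called, with 23.8% higher and 26.0% lower, and of the 6011 genes with a mean count of at least 1000 67.0% were called. The median log2 fold change was 0.21 over the 10 genes and -0.02 over all genes tested. The CPM values (the count relative to the scaled library size) of the groups did not overlap for any of the 10 genes, against 57.4% of all genes tested. Only Emcn changed by over 2-fold.

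**Figure D2:**
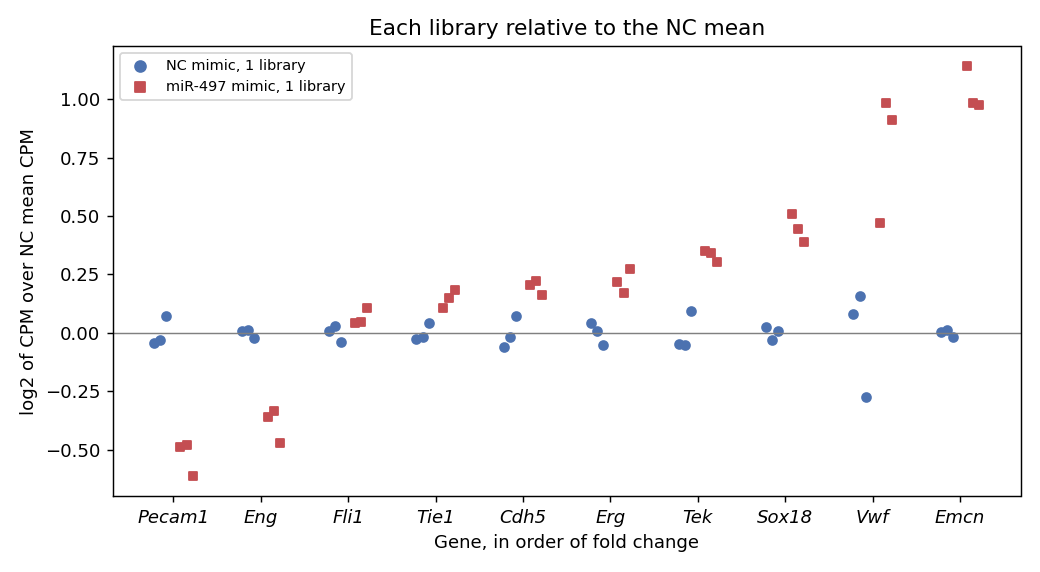
Each library's CPM over the NC mean of the same gene, on a log2 scale (vertical axis), for 3 NC and 3 miR-497 libraries (points), ordered by fold change. Pecam1 and Eng lie below 0 in every miR-497 library, Emcn lies near 1, and the NC libraries of Vwf spread most.

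Pecam1, which encodes the adhesion molecule CD31 of endothelial contacts, fell by 30.5% (the value fitted by edgeR). The gene (ENSMUSG00000020717) lies on the minus strand at chr11:106654217-106750628 of GRCm38. Its CPM was 3450, 3480 and 3733 in the NC libraries and 2536, 2550 and 2325 in the miR-497 libraries. All 3 miR-497 libraries were below all 3 NC libraries. The mean went from 3554 ± 155 to 2471 ± 126 CPM (SD, n = 3). The difference was -0.52 on the log2 scale, with a standard error of 0.0628 and a 95% interval of -0.66 to -0.39 (edgeR adjusted p = 2.7e-06).

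Eng, which encodes endoglin, a co-receptor for BMP9 and other TGF-beta family ligands, was the other gene that fell. It (ENSMUSG00000026814) lies on the plus strand at chr2:32646595-32682669. Its CPM was 904, 906 and 884 with NC and 699, 712 and 647 with miR-497. The groups were far apart relative to their spread, with means of 898 ± 12.2 and 686 ± 34.3 CPM (SD, n = 3). The log2 difference was -0.39 with a standard error of 0.0554 (95% interval -0.51 to -0.27, edgeR adjusted p = 1.8e-05).

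Pecam1 and Eng were also the only members of the 10 whose longest annotated 3' UTR holds a 7-base match to the miR-497-5p seed, TGCTGCT. The microRNA and the 3 related ones below, from RefSeq on GRCm38.p6, share that seed, shown in capitals. The labels do not give the sequence of the mimic itself, and the mouse miR-497a strand is shown.
mmu-miR-497a-5p: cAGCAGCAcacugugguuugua
mmu-miR-16-5p: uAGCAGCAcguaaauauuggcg
mmu-miR-195a-5p: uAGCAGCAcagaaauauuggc
mmu-miR-15a-5p: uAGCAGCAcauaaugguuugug

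The matches in the 3' UTRs are given next, with the match in capitals and 11 bases of the transcript on either side. Within this set only the genes that fell hold a 7-base match, and whether the matches bear on the falls was not tested. The Pecam1 match covers bases 455 to 461 of a 926-base 3' UTR (chr11:106654671-106654699 for the window, minus strand), and 4 of 5 coding transcripts with a 3' UTR carry a 7-base match. Eng has 2 matches in a 1108-base 3' UTR, at bases 267 to 273 (window chr2:32681817-32681845, plus strand) and 689 to 695 (window chr2:32682239-32682267), and of 3 coding transcripts with a 3' UTR all carry at least 1 match and 2 carry more than 1.
Pecam1: gaaatacacagTGCTGCTcaggtttgcct
Eng, the upstream match: gtgcacacccaTGCTGCTtagaagcctaa
Eng, the downstream match: tcagttctctcTGCTGCTtgctcatttgg

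Tie1 and Erg, which rose, hold only the 6-base core GCTGCT. In Tie1 it covers bases 1369 to 1374 of 2240 (window chr4:118475465-118475492, minus strand), and in Erg bases 1009 to 1014 of 1637 (window chr16:95359781-95359808, minus strand).
Tie1: agctctcggcaGCTGCTgcgctttgcca
Erg: gatagaaggcaGCTGCTcaagccaccac

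No 6-base or longer match was found in the longest 3' UTRs of Cdh5 (1513 bases), Tek (978), Fli1 (1572), Emcn (1629), Vwf (738) or Sox18 (367). A match is a description of these letters and not a measured binding site. A 3' UTR was annotated for 12859 of the genes tested, of which 3617 (28.1%) had a 7-base or 8-base match. They made up 40.5% of the 3656 genes that fell, 20.1% of the 3271 that rose and 24.9% of the 5932 not called. Many genes with a match therefore did not fall: of those with one, 40.9% fell and 18.2% rose. Of the genes without a match, 23.5% fell and 28.3% rose.

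**Figure D3:**
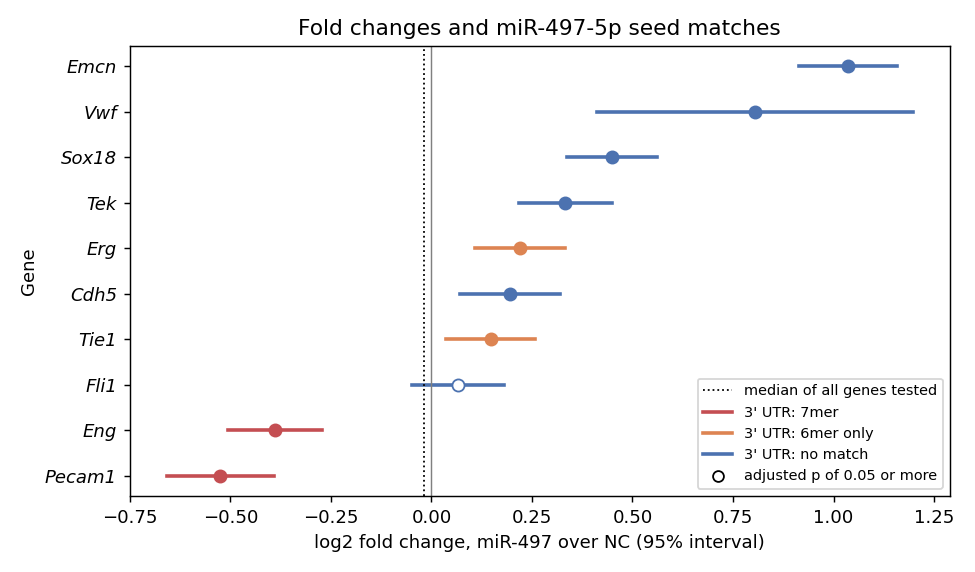
Log2 fold change of each gene, miR-497 over NC (horizontal axis), with its 95% interval from edgeR (bars), coloured by the best seed match in the longest 3' UTR. The 2 genes with a 7-base match, Eng and Pecam1, lie below 0, and Fli1 (open circle) is the only gene not called.

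Among the surface proteins, Emcn rose most of the 10. It encodes endomucin, a heavily glycosylated surface protein of veins and capillaries. The gene (ENSMUSG00000054690) lies on the plus strand at chr3:137341067-137432185. Its CPM was 374, 376 and 369 in the NC libraries and 822, 738 and 732 with miR-497. The NC libraries were nearly the same, and each miR-497 library was far above them. The mean went from 373 ± 3.80 to 764 ± 50.2 CPM (SD, n = 3). On the log2 scale the difference was 1.03, with a standard error of 0.0576 and a 95% interval of 0.91 to 1.16 (edgeR adjusted p = 3.2e-10).

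Cdh5, which encodes VE-cadherin, the adhesion molecule of endothelial adherens junctions, rose slightly. The gene (ENSMUSG00000031871) lies on the plus strand at chr8:104101625-104144511. Its CPM was 2079, 2145 and 2282 with NC and 2496, 2526 and 2429 with miR-497. The highest NC library lay below the lowest miR-497 library, by a margin smaller than the range of the NC group. The means were 2169 ± 104 and 2484 ± 49.4 CPM (SD, n = 3). The difference was 0.20 on the log2 scale, with a standard error of 0.0590 and a 95% interval of 0.07 to 0.32 (edgeR adjusted p = 0.0109). The call was lost without NC replicate 2 (edgeR adjusted p = 0.0961).

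The receptor Tek (Tie2), which binds the angiopoietins, rose. The gene (ENSMUSG00000006386) lies on the plus strand at chr4:94739289-94874976. Its CPM was 297, 296 and 328 in the NC libraries and 391, 389 and 379 in the miR-497 libraries, with no overlap. The means were 307 ± 17.99 and 386 ± 6.48 CPM (SD, n = 3). On the log2 scale the difference was 0.33, with a standard error of 0.0548 and a 95% interval of 0.22 to 0.45 (edgeR adjusted p = 7.8e-05).

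Tie1, the partner receptor of Tek, moved less. It (ENSMUSG00000033191) lies on the minus strand of the same chromosome, at chr4:118471191-118490061. Its CPM was 514, 519 and 540 with NC and 564, 582 and 596 with miR-497. The groups did not overlap in CPM, but in TPM they did (397 to 410 and 396 to 448). The means were 524 ± 13.8 and 581 ± 15.9 CPM (SD, n = 3). The difference was 0.15 on the log2 scale, with a standard error of 0.0523 and a 95% interval of 0.04 to 0.26 (edgeR adjusted p = 0.0275). The call was lost when any of 4 libraries was left out, at an edgeR adjusted p of 0.1 without NC replicate 1, 0.146 without NC replicate 2, 0.0745 without miR-497 replicate 2 and 0.0631 without miR-497 replicate 3.

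Of the transcription factors, Sox18 rose most. It is a SoxF factor that acts in vessel and lymphatic development. The gene (ENSMUSG00000046470) lies on the minus strand at chr2:181669836-181671640. Its CPM was 338, 325 and 334 with NC and 473, 452 and 434 with miR-497, and every miR-497 library was well above every NC library. The means were 332 ± 6.67 and 453 ± 19.3 CPM (SD, n = 3). On the log2 scale the difference was 0.45, with a standard error of 0.0529 and a 95% interval of 0.34 to 0.56 (edgeR adjusted p = 2.3e-06).

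Erg, an ETS factor that maintains endothelial genes, rose less. It (ENSMUSG00000040732) lies on the minus strand at chr16:95359169-95586593. Its CPM was 349.7, 342 and 328 in the NC libraries and 395, 382 and 411 in the miR-497 libraries. The groups were separate, with means of 339.9 ± 11.1 and 396 ± 14.4 CPM (SD, n = 3). The log2 difference was 0.22 with a standard error of 0.0529 (95% interval 0.11 to 0.33, edgeR adjusted p = 0.00224).

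For Fli1, the ETS factor closest to Erg, no change was detected. The gene (ENSMUSG00000016087) lies on the minus strand at chr9:32422204-32542861. Its CPM was 94.6, 96.0 and 91.6 with NC and 96.9, 97.2 and 101 with miR-497. The lowest miR-497 library was only just above the highest NC library, and in TPM the groups overlapped, at a mean of 102 TPM in each. The log2 difference was 0.07 with a standard error of 0.0538 (edgeR adjusted p = 0.329), and its 95% interval of -0.05 to 0.18 leaves room for a small rise.

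Vwf, the clotting protein that endothelial cells store in Weibel-Palade bodies, rose from a low base. The gene (ENSMUSG00000001930) lies on the plus strand at chr6:125546774-125686679. It had 146, 170 and 97 counts in the NC libraries and 145, 262 and 239 in the miR-497 libraries, which gives 4.404, 4.66 and 3.44 CPM against 5.77, 8.25 and 7.84 CPM. The groups did not overlap in CPM, but miR-497 replicate 1 lay nearer to the NC libraries than to the other 2 of its group. The means were 4.17 ± 0.639 and 7.29 ± 1.33 CPM (SD, n = 3). The difference was 0.80 on the log2 scale, with a standard error of 0.185 and a 95% interval of 0.41 to 1.20 (edgeR adjusted p = 0.00162). The interval of Vwf was the widest of the 10.

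Ratios of counts within a library do not depend on how libraries are scaled. They restate the shifts above from the same counts and are no separate evidence. Pecam1 had 1.66, 1.62 and 1.64 counts for each Cdh5 count in the NC libraries and 1.02, 1.01 and 0.957 in the miR-497 libraries. The counts of these 2 junction genes thus went from clearly unequal to nearly equal. Counts are not divided by exon length, so nearly equal counts do not mean nearly equal levels. In TPM, Pecam1 and Cdh5 were at 2152 and 1945 with NC and at 1424 and 2122 with miR-497. The Emcn count per Pecam1 count went from 0.105 ± 0.00544 to 0.309 ± 0.0179 (SD, n = 3), 2.95 times as high. The Eng count per Cdh5 count went from 0.415 ± 0.0246 to 0.276 ± 0.00845, Tie1 per Tek from 1.71 ± 0.0547 to 1.504 ± 0.0653 and Erg per Fli1 from 3.61 ± 0.0735 to 4.02 ± 0.0787 (SD, n = 3 for each). In each of these 5 ratios the groups did not overlap. For Pecam1 per Cdh5, Emcn per Pecam1 and Eng per Cdh5 this was fixed beforehand. The genes of those pairs moved in opposite directions in CPM without overlap. The 2-sided exact permutation test gave p = 0.1 for each ratio, the smallest that 3 against 3 libraries allow, so it could not pass 0.05.

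ETS factors such as Erg and Fli1 bind DNA around the letters GGAA, and the promoters of endothelial genes are known for such motifs. RefSeq promoter windows (GRCm38.p6, the 250 bases before the RefSeq start) were matched for Emcn, Eng, Erg, Tek and Tie1. GGAA was searched on both strands, with overlapping matches counted separately. The windows held 4 matches in Emcn, 3 in Eng, 2 in Tek and 7 in Tie1, and 2, 4 and 0 at the 3 starts of Erg. Of 32817 promoter windows of this length, 93.4% held at least 1 match, 54.6% at least 3 and 3.82% at least 7. Of the 250 bases of the Tie1 window 212 lie within exons of the GENCODE M21 gene models, and 11 of the Emcn window do, so the Tie1 window is mostly transcribed sequence in that annotation. The windows of Tek, which rose, and Eng, which fell, are shown with the matches (GGAA, or TTCC on the opposite strand) in capitals. They lie at chr4:94739039-94739288 and chr2:32646345-32646594, both on the plus strand. A match is not evidence of binding.
Tek: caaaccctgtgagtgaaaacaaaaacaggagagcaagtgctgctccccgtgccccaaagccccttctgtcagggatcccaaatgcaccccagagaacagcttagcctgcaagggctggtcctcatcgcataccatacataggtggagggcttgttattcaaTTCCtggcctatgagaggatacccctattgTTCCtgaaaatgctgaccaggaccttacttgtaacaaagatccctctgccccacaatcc
Eng: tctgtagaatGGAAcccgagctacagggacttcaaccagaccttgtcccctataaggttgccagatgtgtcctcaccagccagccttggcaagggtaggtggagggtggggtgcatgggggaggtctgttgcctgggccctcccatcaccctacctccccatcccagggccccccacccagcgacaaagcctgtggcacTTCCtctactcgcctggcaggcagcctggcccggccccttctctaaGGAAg

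Other genes of endothelial cells moved in both directions, as the 10 did. Over 6 lists with 104 genes, 92 were tested, of which 38 rose, 27 fell and 27 were not called. That is 70.7% called, against 49.8% of all genes tested and 67.0% of those with a mean count of at least 1000. Their median log2 fold change was 0.02, and 88 of the 104 genes were expressed in all 6 libraries. Another 7 were listed at exactly 0 in every library, among them Cav1, which encodes the caveolar protein caveolin-1, beside its coat gene Cavin1 at 1320 CPM with NC. How the authors' counting treated such genes is not given in the sources used here, so a listed 0 is not read as absence. Of the 34 tested genes in these lists with a seed match of at least 7 bases, 10 fell, 10 rose and 14 were not called. Over all tested genes with such a match, 40.9% fell and 18.2% rose. Of the 27 genes that fell, 10 had such a match and 17 did not, against 40.5% with a match among all genes that fell.

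Around Erg, Fli1 and Sox18, 10 of 16 tested endothelial transcription factors rose and 1 fell, with a median log2 fold change of 0.25. That is 68.8% called, and over the 6 endothelial lists the called share ran from 25.0% to 82.6%. Of all genes tested 49.8% were called (23.8% higher and 26.0% lower), and 67.0% of those with a mean count of at least 1000. Klf2, a factor induced by blood flow, rose from 115 ± 5.52 to 198 ± 12.2 CPM (log2 0.79). The ETS factors Ets1 and Ets2 rose by 0.48 and 0.53 on the log2 scale, the lymphatic factor Prox1 by 0.60 and Foxc1 by 0.76. Gata2 was the only factor of the list that fell, from 98.1 ± 3.30 to 74.2 ± 2.38 CPM (log2 -0.40, edgeR adjusted p = 1.6e-05).

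Around Tek and Tie1, 4 of 6 genes of angiopoietin and Tie signalling were tested, and only Angpt1, a ligand of Tek, was called. This is a share of 25.0%, against 49.8% of all genes tested. Angpt1, with 14.2% of its exon bases shared with another gene, fell on the log2 scale by 0.87. Its level was very low (1.54 to 0.844 CPM, edgeR adjusted p = 0.0456). Ptprb, the phosphatase VE-PTP that acts on Tek, was at 168 and 151 CPM (log2 -0.15, edgeR adjusted p = 0.0684). Dok2, an adaptor protein of Tek, was under 1 CPM in both groups. Of the other angiopoietins, Angpt2 was listed at 0 in all 6 libraries and Angpt4 had 1 to 11 counts.

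Around Eng, 2 of 12 tested signalling partners rose and 4 fell, with a median of -0.09. Acvrl1 (ALK1), the receptor that works with endoglin, was at 581 and 553 CPM and was not called (log2 -0.07, edgeR adjusted p = 0.273), as was Tgfbr2 (log2 0.08). The signal carrier Smad1 (-0.28), its target genes Id1 (-0.17) and Id3 (-0.23), and the co-receptor Tgfbr3 (-0.36) fell. Tgfbr1 rose by 0.37 and the common mediator Smad4 by 0.33 on the log2 scale.

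Around Pecam1, Cdh5 and Emcn, 13 of 23 tested junction and surface genes rose and 6 fell, with a median of 0.24. Of this list 82.6% was called, against 49.8% of all genes tested and 67.0% of those with a mean count of at least 1000. Cldn5, the tight junction protein of endothelium, rose from 179 ± 8.71 to 362 ± 20.9 CPM (log2 1.02, edgeR adjusted p = 4.4e-10), close to the rise of Emcn. Jam2 rose by 1.22 and Clec14a by 0.93, and the abundant diaphragm protein Plvap by 0.30. Mmrn2 (-0.47), Icam1 (-0.33), Krit1 (-0.32) and Mcam (-0.31) fell, and Icam2 was not called (log2 0.03). Icam1 shares 11.7% of its exon bases with another gene.

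Of 22 tested endothelial receptors and signalling genes 8 rose and 9 fell, with a median of -0.03. Called genes made up 77.3%, against 49.8% of all genes tested and 67.0% of those with a mean count of at least 1000. The semaphorin receptor Plxnd1 went from 1902 ± 72.9 to 3187 ± 156 CPM (log2 0.75), and Ece1 (0.74) and Myct1 (0.62) also rose. Egfl7, with 11.2% of its exon bases shared with other genes, fell on the log2 scale by 0.94. Gpihbp1 (-0.55), the ligand gene Apln (-0.52) and the caveolar coat gene Cavin1 (-0.46) fell.

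Around Vwf, 5 of 15 granule and haemostasis genes rose and 6 fell, with a median of -0.27. The called share here was 73.3%, against 49.8% of all genes tested and 67.0% of those with a mean count of at least 1000. The Vwf-cleaving protease Adamts13 rose from 6.73 ± 2.86 to 17.5 ± 7.60 CPM (log2 1.39, edgeR adjusted p = 0.00045). The granule protein Cd63 (0.60) and the clotting inhibitor Tfpi (0.51) also rose. Sele, the adhesion molecule E-selectin, fell from 191 ± 10.4 to 89.2 ± 3.98 CPM (log2 -1.10), and Plat (-1.02) and the protein C receptor gene Procr (-0.55) fell.

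**Figure D4:**
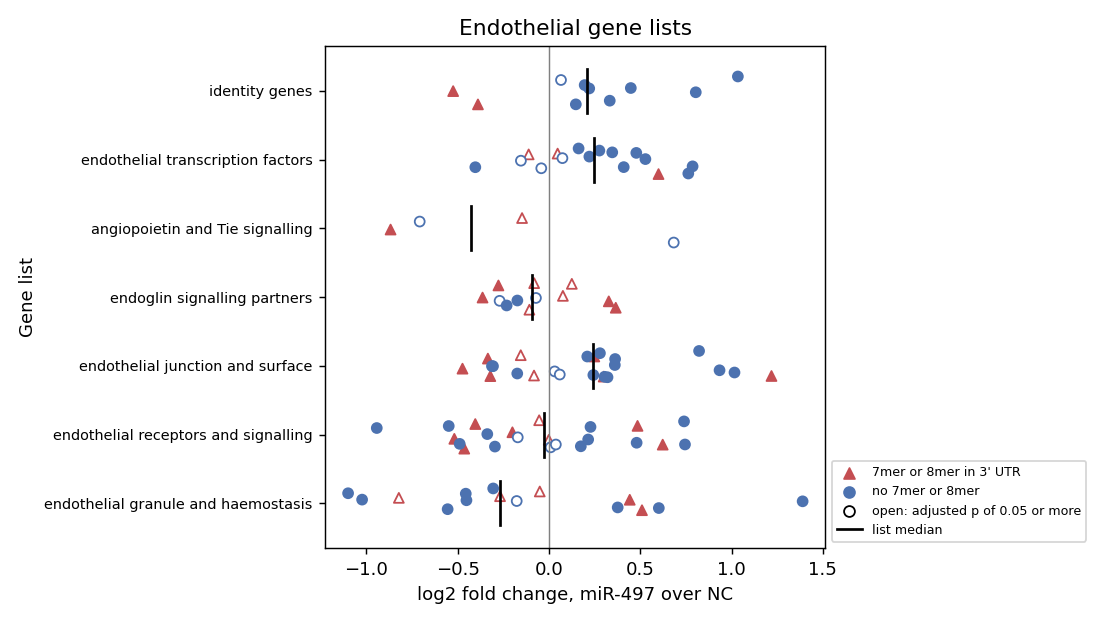
Log2 fold change, miR-497 over NC (horizontal axis), of each tested gene (points) in the identity genes and 6 further endothelial lists, with each list's median as a black line. Triangles have a 7-base or 8-base seed match in the 3' UTR, open points were not called, and the medians lie between -0.43 and 0.25.

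Blood cell and epithelial markers were low, while the highest fibroblast and mural markers reached the range of the lower identity genes. Acta2, a smooth muscle actin, was at 63.7 TPM with NC and 115 TPM with miR-497, against 102 TPM for Fli1 in each group. The collagen genes Col1a2 (39.1 and 82.5 TPM) and Col1a1 (35.5 and 60.3 TPM) lay below Fli1 and above Vwf. Summed over 10 fibroblast markers, the level was 140.0 to 151 TPM in the NC libraries and 183 to 212 TPM with miR-497. Of these 10 genes, 7 were expressed in all 6 libraries. Of 8 tested, 3 rose (Col1a2 by 1.15, Col1a1 by 0.84 and Postn by 0.59 on the log2 scale). Another 3 fell (Col3a1 at -0.79, Thy1 at -0.47, and Fap by 2-fold or more). The called share was 75.0% for these fibroblast markers and 44.4% for the mural markers below, against 49.8% of all genes tested. Lum, a defining fibroblast gene, was listed at 0 in all 6 libraries, and Dcn had 0 to 4 counts, with the same limit on exact zeros as for Cav1. Over 10 mural and smooth muscle markers the sum was 112 to 118 TPM with NC and 156 to 165 TPM with miR-497, and 4 were expressed. Acta2 (0.92) and Tagln (1.01) rose, with 67.9% of the Tagln exon bases shared with other genes. Pdgfrb (-0.37) fell, as did Notch3 (-1.37) at a low level (2.60 CPM with NC and 1.01 CPM with miR-497). Blood cell markers summed to 4.69 to 7.74 TPM with NC and 2.60 to 4.48 TPM with miR-497, and 1 of the 10 was expressed in all 6 libraries. The 3 tested were Itga2b, Lyz2 and Csf1r, in order of mean TPM, and edgeR called 0 of them. Cd3e, Hbb-bs and Itgam (with 68.7% of its exon bases shared with another gene) were listed at 0 and Ptprc had 4 to 7 counts. Epithelial markers summed to 1.43 to 4.34 and 0.771 to 2.70 TPM, with none of 10 expressed. Of 2 tested, Grhl2 was called lower (log2 -1.62) and Cdh1 was not called (log2 1.53). The part of the fibroblast and mural markers in the changes of the identity genes was not tested.

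**Figure D5:**
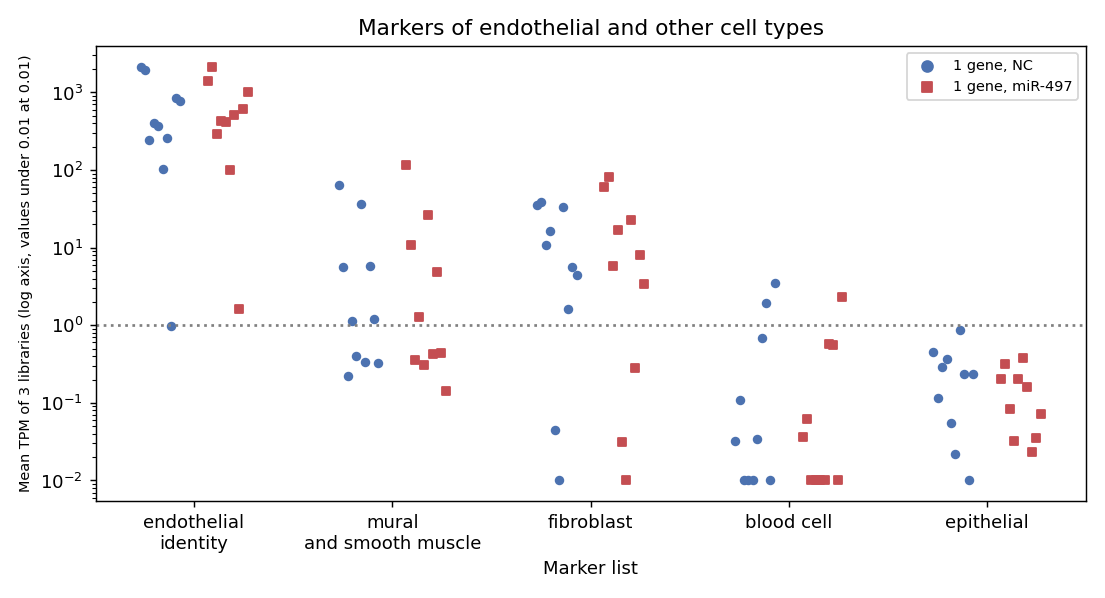
Mean TPM over 3 libraries (vertical log axis, values under 0.01 drawn at 0.01) of each gene (points) in the endothelial identity list and 4 marker lists of other cell types, for NC and miR-497. Of the 10 identity genes, 9 lie above 100 TPM, Acta2 with miR-497 also does (115 TPM), and blood cell and epithelial markers lie at or below 3.48 TPM (dotted line, 1 TPM).

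The genes whose CPM followed each expressed member most closely over the 6 libraries were found by Pearson's r of log2 CPM. Vwf, which was not called expressed, was left out. The libraries fall into 2 groups, so r takes in the difference between them, and it is given as a description. Pecam1 was followed most closely by Ints1, Sqle and Loxl2, and 304 genes reached r of 0.99. Emcn was followed by Csf2rb2, Ugp2 and Cfap36 (322 genes), Eng by Fancm, Dek and Phka2 (251 genes) and Sox18 by Cfap97, Ubxn4 and Spast (130 genes). Fewer genes reached 0.99 for the members with smaller fold changes: 55 for Tek (led by Fam135b, Snd1 and Mia2), 29 for Cdh5 (Mprip, Ddb1 and Slc6a6), 18 for Erg (Tox, Scaf1 and Dnaic1), 4 for Tie1 (Nadsyn1, AC174800.1 and Prr3) and 1 for Fli1 (Cabp1, before Ccdc157 and Gm11613 at 0.989 and 0.986).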

How the data were processed

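Poly(A)-enriched RNA from ADC106 cells was sequenced in 6 libraries, per the labels' protocols. The table deposited by the authors holds unnormalized read counts, 1 whole number for each gene and library. The submitters' processing notes name STAR 2.5.4b, featureCounts, Subread 1.6.1, edgeR 3.32.1 and the build GRCm38, with no role or order. The annotation release, the strand setting and the treatment of reads that align to several places were not given in the sources used here, so reads of overlapping genes cannot be told apart. Groups and replicate numbers came from the sample titles.

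Symbols, gene models and 3' UTRs came from GENCODE M21 (GRCm38), which matched 55141 of 55401 identifiers. Genes were filtered with filterByExpr (minimum count 10, minimum total 15), scaled by TMM and tested with edgeR 4.0.16 in R 4.3.3 by a 2-sided quasi-likelihood F-test with the group as its only term, adjusted by Benjamini-Hochberg over 14661 genes at a threshold of 0.05. The standard error was the log2 fold change divided by the square root of F. CPM uses TMM-scaled totals, and TPM uses the union of a gene's exons as length. Means carry the SD over 3 libraries. A seed match was TGCTGCT or GCTGCTA in the longest coding transcript 3' UTR, and GCTGCT alone was called a 6-base match. The procedure was tested on simulated data.

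The 10 genes and all lists were chosen with earlier results of these data known, so no test was run over a list. Besides the 10 genes, the text names, from each list, the 3 tested genes with the highest mean TPM and the 3 largest rises and falls among called genes whose mean log2 CPM was 2 or more and whose groups do not overlap, and for each expressed member the 3 genes with the highest Pearson r. Angpt2, Angpt4, Cav1, Lum, Dcn, Cd3e, Itgam, Hbb-bs, Ptprc, Fap and Notch3 were named outside that rule, after their values were seen. Alternatives were DESeq2 size factors and upper-quartile scaling, no filter and a mean count of at least 50, the DESeq2 1.42.0 Wald test, limma 3.58.1 voom, a replicate block, each library left out, and, for levels, the longest transcript as length and TPM over coding genes alone.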

Additional observations from a re-analysis of the deposited data

How the results depend on the processing

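The 10 genes were refitted under 13 alternatives, 130 results in all: 123 kept their direction and their side of the threshold, 7 kept their direction and lost the call, and none reversed. All 7 concern Cdh5 or Tie1. Leaving out 1 library at a time left 5 to 7 of the 10 genes higher and 2 lower, and over all genes tested 3029 to 3998 higher and 3374 to 3995 lower across the alternatives. Over the wider endothelial lists 35 to 40 genes rose and 24 to 31 fell. With the longest transcript as gene length, 10 genes rather than 9 counted as expressed, because Vwf reached 1.34 TPM in the NC libraries; counting TPM over coding genes alone left 9. The log2 fold change of Fli1 ranged from 0.05 to 0.11 with an adjusted p of at least 0.09.

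Replicate numbers were also entered as a block. Same-numbered libraries did not deviate together (correlations of -0.119, -0.0351 and -0.133), and 0 libraries correlated best with their own number, so the numbers were not taken to pair them. With the replicate block 5 genes rose and 2 fell, with Cdh5 at a log2 of 0.20 (edgeR adjusted p = 0.069) and Tie1 at 0.15 (edgeR adjusted p = 0.0984). Upper-quartile scaling moved the share of higher genes among all called from 47.8% to 53.9%. Vwf had the fewest counts of the 10 genes, 97 to 262.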
